A study of Homo sapiens with 8 samples.

Results

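Interferon response genes are the genes through which a cell makes, senses and answers interferon, the signal that puts cells into an antiviral state. Here 9 of them, of 19056 genes on the arrays, were followed in A549 cells exposed to a plant seed extract or to a compound contained in it. They were taken by symbol (IFNB1, IRF1, IRF7, IRF9, STAT2, IFIT1, IFIT2, IFIT3 and ISG15) and found on the arrays through the accession that each probe carries. All 9 were measured, and 8 of them were well above background on at least 1 array.

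A549 is an established line of human lung carcinoma cells. EEDS is the ethanol extract of Descurainia sophia seeds, and helveticoside is a cardiac glycoside, a class of compounds that inhibits the sodium pump. In one series cells were given 1.25, 5 or 20 μg/mL EEDS, and in the other 3.75, 15 or 60 nM helveticoside, each beside a separate vehicle control. The labels give 48 h of incubation, and the methods of the study give a shorter exposure for the arrays. No cells in either series were labelled as infected or given interferon. Each of the 8 groups was 1 one-colour Agilent array hybridised with RNA pooled from 3 cultures, so a single dose has no replicate, and no p-value is given for one.

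Type I interferons, of which interferon beta is one, bind a receptor of 2 chains and activate the kinases JAK1 and TYK2. These phosphorylate STAT proteins, and STAT2 joins IRF9 in the complex ISGF3, and ISGF3 binds the interferon-stimulated response element (ISRE) in front of genes such as IFIT1 and ISG15. STAT dimers also bind the gamma-activated sequence (GAS), for instance in front of IRF1, and IRF7 amplifies the production of type I interferons. Epithelial cells carry this machinery and keep its genes at a low, tonic level without infection.

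The promoters are shown first. With helveticoside the dose trend of IFIT1 fell and that of ISG15 rose, calls that held in 7 and 5 of 13 other settings. Both promoters hold the core letters of the element that ISGF3 binds. The sequences are the 250 bases before the annotated start in RefSeq's annotation of GRCh38.p14, written 5′ to 3′ on the gene's strand. IFIT1 lies on the plus strand (chr10:89392373-89392622), ISG15 on the plus strand (chr1:1013247-1013496) and IRF1 on the minus strand (chr5:132490774-132491023). Capitals mark the ISRE core in IFIT1 and ISG15 (GAAA, any 2 bases and GAAA, on either strand) and the GAS motif TTCNNNGAA, which reads the same on both strands, in IRF1.
IFIT1: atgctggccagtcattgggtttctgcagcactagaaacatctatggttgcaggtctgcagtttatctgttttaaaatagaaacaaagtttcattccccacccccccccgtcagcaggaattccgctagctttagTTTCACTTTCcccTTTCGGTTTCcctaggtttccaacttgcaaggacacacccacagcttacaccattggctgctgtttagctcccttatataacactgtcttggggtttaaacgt
ISG15: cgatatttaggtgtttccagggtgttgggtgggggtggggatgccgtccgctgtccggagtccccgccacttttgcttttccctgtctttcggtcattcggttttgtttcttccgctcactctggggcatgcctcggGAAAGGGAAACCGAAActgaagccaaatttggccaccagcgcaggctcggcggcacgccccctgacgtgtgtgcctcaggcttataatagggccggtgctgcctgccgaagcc
IRF1: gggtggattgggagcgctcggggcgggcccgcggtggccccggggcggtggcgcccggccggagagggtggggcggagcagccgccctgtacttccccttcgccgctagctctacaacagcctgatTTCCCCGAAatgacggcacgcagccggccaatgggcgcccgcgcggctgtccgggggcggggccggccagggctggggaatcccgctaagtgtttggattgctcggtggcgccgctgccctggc

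The IFIT1 promoter held 2 ISRE cores, with their first bases at -116 and -103 from the start. The ISG15 promoter also held 2, at -113 and -107, which overlap each other. IFIT3 has 2 annotated starts, with 2 ISRE cores before each. A GAS motif lay at -124 in IRF1, at -63 in IRF9 and at -218 in IFNB1. STAT2 held neither motif in its window. In the 300-base windows (250 before and 50 after the start) of all 35116 promoters in the table, the ISRE core was found in 3.57% and the GAS motif in 7.66%. A match describes the letters in the window and does not show that a factor was bound there.

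**Figure D1:**
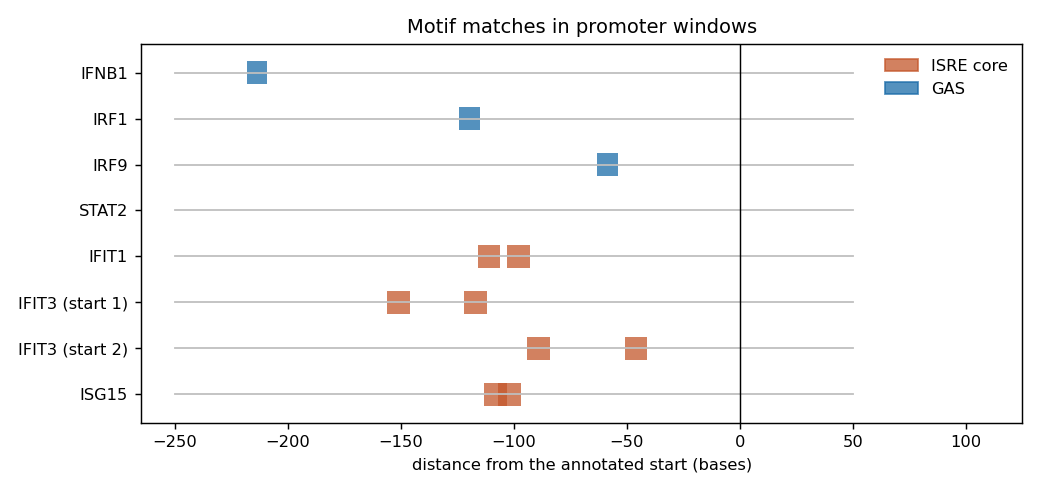
Positions of motif matches in the promoter windows of the genes with an entry in the promoter table, in bases from the annotated start. Orange boxes are ISRE cores and blue boxes are GAS motifs. IFIT1, ISG15 and both starts of IFIT3 carry 2 ISRE cores each, while IRF1, IRF9 and IFNB1 carry 1 GAS motif each.

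All signals below are log2 quantile-normalized signals of the gene's probe, and a difference is the treated array minus the vehicle control of the same series. The doses of a series share that control array, so their differences from it are not independent. A probe that the scanner software did not call well above background has only a bound. Such a bound is given as "at least" a fold, against the higher of the probe's own signal and the lowest signal well above background on that array. It applies to this processing only and is not a limit under other settings. The 2 vehicle controls differed from each other with an SD of 0.646 on the log2 scale over all genes and of 0.481 over the 11498 genes that passed the well-above-background call on all 8 arrays. The software's own error on the members' signals was 10% to 20.1% of the signal where they were well above background. Dose trends are slopes per dose step, in log2 units, from a limma fit over the 8 arrays with 4 residual degrees of freedom, in which the scatter of the arrays about the lines stands in for replicates. An adjusted p is Benjamini-Hochberg over all genes.

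**Figure D2:**
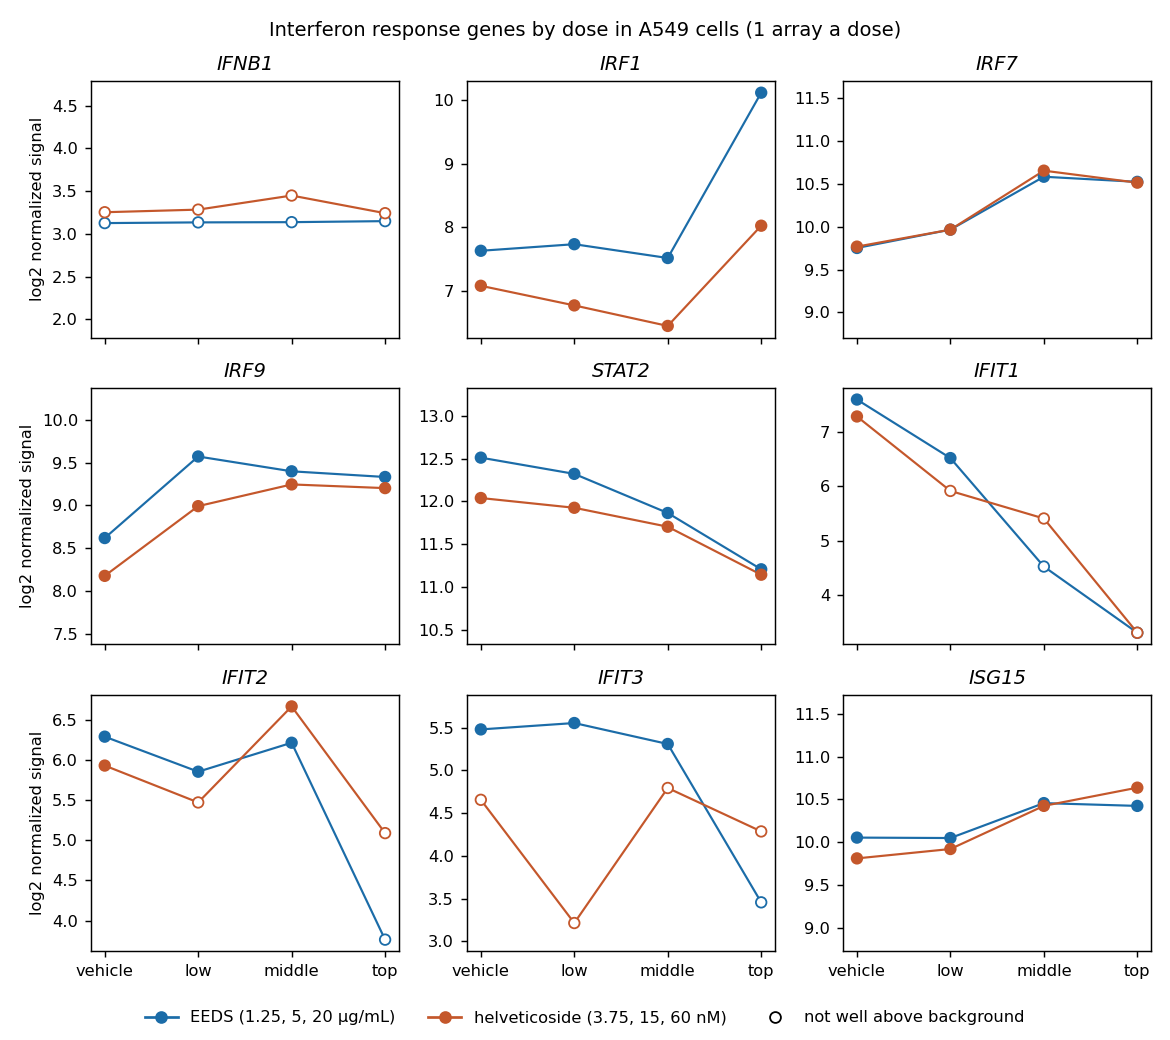
Log2 normalized signal of the 9 genes on each array, from the vehicle control to the top dose, with 1 array a point and no error bars because there are no replicates. Blue is EEDS, orange is helveticoside, open points are not well above background, and each panel has its own axis. IFIT1 and STAT2 go down in both series, and IRF9 and IRF7 lie above their controls at every dose. IRF1 is highest at the top dose of each series, and IFNB1 is never well above background.

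The ligand came first. IFNB1, which encodes interferon beta, was not well above background on any of the 8 arrays. Its signal was 3.13, 3.14, 3.14 and 3.15 from the vehicle control to 20 μg/mL EEDS, and 3.25, 3.28, 3.45 and 3.24 from the control to 60 nM helveticoside. Neither series gives a level or a fold for it.

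STAT2, the subunit of ISGF3 that activates transcription, went down step by step with EEDS. Its signal was 12.51 on the control and 12.32, 11.86 and 11.21 at 1.25, 5 and 20 μg/mL, which is 2.47-fold lower at the top dose. The order was the same with helveticoside, where the signal was 12.04 on the control and 11.93, 11.70 and 11.14 at the rising doses, or 1.86-fold lower at 60 nM. Every treated array was below its control, and the probe was well above background throughout. STAT2 fell with EEDS, with a slope of -0.44 (SE 0.0726, limma adjusted p = 0.0222). The EEDS call held in 9 of 13 other settings and was lost without the lowest dose (adjusted p = 0.0960), the middle dose (0.0993) or the top dose (0.205), and with the series fitted alone (0.110). Of the settings in which the call held, the mean over all probes and no filter on dim probes repeat the values of STAT2's single probe. With helveticoside the slope was -0.29 (adjusted p = 0.0606), which did not pass.

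IRF9, the DNA-binding subunit of the same complex, lay on the other side of its control. Its signal was 8.62 on the EEDS control and 9.57, 9.40 and 9.33 at the rising doses, which is 1.94-fold, 1.72-fold and 1.64-fold higher. In the helveticoside series it was 8.18 on the control and 8.99, 9.25 and 9.20, or 1.76-fold, 2.10-fold and 2.04-fold higher. All 6 treated arrays were above their control, and the lowest doses already held most of the difference. These 6 differences rest on the readings of 2 control arrays. A straight line over the doses describes such a step poorly, and the slopes of 0.20 (adjusted p = 0.422) and 0.33 (adjusted p = 0.197) did not pass the test. The 2 controls differed by 0.44 for this probe, so against the other series' control the difference at 60 nM was 0.58.

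IRF7, the factor that amplifies type I interferon production, had nearly the same profile with the extract and the compound. Its signal was 9.75 on the EEDS control and 9.97, 10.59 and 10.53 at the rising doses. With helveticoside it was 9.77 on the control and 9.97, 10.66 and 10.52. The middle and top doses lay 1.71-fold to 1.78-fold above the control with EEDS and 1.68-fold to 1.85-fold with helveticoside. The slope was 0.29 for both agents, with an adjusted p of 0.0906 for EEDS and 0.105 for helveticoside, neither of which passed.

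IRF1, a factor induced by interferon gamma and by several stress and cytokine signals, stood apart from the other members at 20 μg/mL EEDS. Its signal was 7.63 on the EEDS control, 7.73 and 7.51 at 1.25 and 5 μg/mL, and 10.12 at 20 μg/mL, which is 5.63-fold higher. In the helveticoside series it was 7.08 on the control, 6.77 and 6.44 at 3.75 and 15 nM, and 8.02 at 60 nM, or 1.93-fold higher. The log2 ratios at the 2 lower doses were 0.10 and -0.11 with EEDS and -0.31 and -0.63 with helveticoside. The slopes of 0.73 (adjusted p = 0.206) and 0.25 (adjusted p = 0.747) did not pass. Each top-dose value is 1 array. Under other settings the log2 ratio ran from 2.05 to 3.04 at 20 μg/mL EEDS and from 0.40 to 0.95 at 60 nM helveticoside. At 60 nM the log2 ratio of IRF9 was higher, at 1.03.

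IFIT1, a protein that binds viral RNA lacking the host's cap methylation, was the member whose trend fell with both agents. Its signal was 7.59 on the EEDS control and 6.52 at 1.25 μg/mL, a 2.10-fold lower value that was still well above background. At 5 and 20 μg/mL the probe read 4.53 and 3.32, no longer well above background, which places it at least 7.08-fold and at least 6.87-fold lower. In the helveticoside series it read 7.28 on the control and 5.91, 5.41 and 3.32 at the rising doses. None of those 3 was well above background, which places IFIT1 at least 2.49-fold lower at 3.75 nM and at least 3.49-fold lower at 60 nM. At 15 nM the reading lay above the limit used for the bound, so 3.65-fold lower is the value as read. Falls were smaller under some other settings. The smallest, on the log2 scale, were -1.29 and -1.48 at 5 and 20 μg/mL EEDS. With helveticoside they were -0.70, -0.84 and -1.05 at the rising doses. IFIT1 fell with both agents, with slopes of -1.48 for EEDS (SE 0.161, limma adjusted p = 0.0132) and -1.24 for helveticoside (SE 0.161, adjusted p = 0.0194). These slopes use the signals below the limit as read, so their size is uncertain. With normexp background correction, which compresses dim signals, they were -0.54 (adjusted p = 0.00678) and -0.37 (adjusted p = 0.0285). Under 13 other settings the slope passed in 9 with EEDS and in 7 with helveticoside. Among those it passed, the mean over all probes and no filter on dim probes repeat the values of IFIT1's single probe. The call was lost for both agents without the lowest, the middle or the top dose and with a series fitted alone (adjusted p from 0.0741 to 0.278). For helveticoside it was also lost in the authors' processed table (slope -0.33, adjusted p = 0.109) and where 1 array of the series had to be well above background (-0.60, adjusted p = 0.0572).

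IFIT2, a related protein that restrains some viruses and has been linked to apoptosis, was dimmer. Its signal was 6.29 on the EEDS control, 5.85 and 6.21 at 1.25 and 5 μg/mL, and 3.76 at 20 μg/mL, where it was no longer well above background and at least 2.79-fold lower. With helveticoside it read 5.93 on the control, 5.47 (not well above background) at 3.75 nM, 6.66 at 15 nM and 5.09 (not well above background) at 60 nM. The array at 15 nM was 1.67-fold higher than the control, and the one at 60 nM was at least 1.37-fold lower. The values followed no order with the dose, and the slopes of -0.72 (adjusted p = 0.201) and -0.13 (adjusted p = 0.898) did not pass. A second IFIT2 probe was not well above background on any array.

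IFIT3, which binds and stabilises IFIT1, could be followed only in part. Its signal was 5.48 on the EEDS control and 5.55 and 5.31 at the lower doses. At 20 μg/mL it read 3.46, not well above background, and was at least 1.59-fold lower. In the helveticoside series the probe read 4.66 on the control and 3.22, 4.80 and 4.29 at the rising doses, with none of these 4 arrays well above background, so no fold is given. The slopes of -0.63 with EEDS (adjusted p = 0.225) and 0.05 with helveticoside (adjusted p = 0.986) did not pass.

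ISG15, a ubiquitin-like protein that is joined to other proteins after interferon, lay on the opposite side to IFIT1. Its signal was 10.05 on the EEDS control and 10.05, 10.46 and 10.43 at the rising doses. In the helveticoside series it was 9.81 on the control and 9.92, 10.43 and 10.64, which is 1.08-fold, 1.53-fold and 1.77-fold higher. The probe was bright on all arrays, and each dose of helveticoside lay above the one before it. ISG15 rose with helveticoside, with a slope of 0.30 (SE 0.0627, limma adjusted p = 0.0417), and with EEDS the slope was 0.15 (adjusted p = 0.160). The helveticoside call was close to the limit and was lost under 8 of the 13 other settings of the fit, with an adjusted p between 0.0353 and 0.310. With helveticoside the slopes of IFIT1 and ISG15 had opposite signs. Both promoters hold 2 ISRE cores, and the part of these cores in the direction was not tested.

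**Figure D3:**
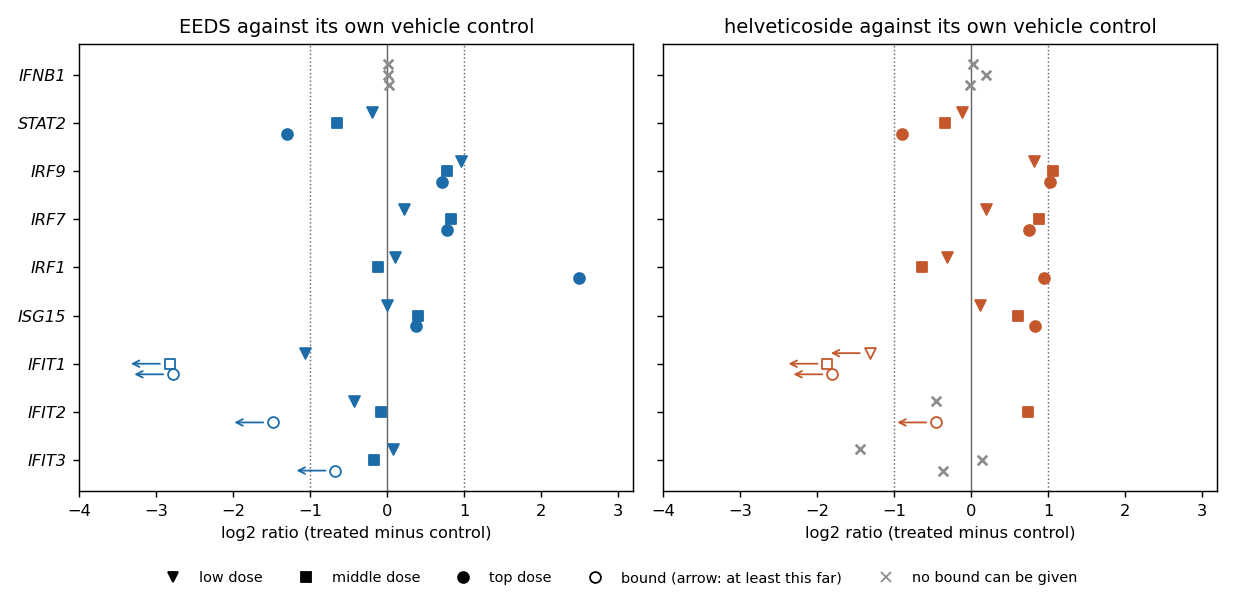
Log2 ratio of each treated array to the vehicle control of its own series for the 9 genes, at the low (triangle), middle (square) and top (circle) dose, with 1 array a point. Open symbols with arrows are bounds, grey crosses are ratios of dim signals as read for which no bound can be given, and dotted lines mark 2-fold. The open IFIT1 square with helveticoside is the value as read. IRF1 at 20 μg/mL EEDS lies furthest to the right at 2.49, the IFIT1 bounds lie furthest to the left, and IRF9 and IRF7 lie to the right of 0 at every dose.

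Counted at the top doses, 1 of the 9 genes (IRF1) was over 2-fold higher and 4 (STAT2, IFIT1, IFIT2 and IFIT3) were over 2-fold lower at 20 μg/mL EEDS, with dim signals taken as read. Of all 19046 genes tested there, 13.3% were over 2-fold higher and 14.5% over 2-fold lower. At 60 nM helveticoside 1 gene (IRF9) was over 2-fold higher and 1 (IFIT1) over 2-fold lower, against 10.8% and 12.8% of all 19056 genes. Counted only where both arrays were well above background, which leaves out genes that dropped below the limit, 5 members were counted at each top dose. Of these, 1 was higher (IRF1) and 1 lower (STAT2) with EEDS, against 15.0% and 15.9% of all such genes, and 1 (IRF9) was higher and 0 lower with helveticoside, against 11.0% and 13.0%. For dose trends, 0 of the 9 genes rose and 2 fell with EEDS, where 7.27% of all genes rose and 7.86% fell. IRF7 was the 1 member with a rising slope and an unadjusted p under 0.05 for EEDS. With helveticoside 1 rose and 1 fell, where 5.46% rose and 5.79% fell.

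The slopes of the 2 agents were compared in the same fit for every gene. No gene differed after adjustment (0.0% of 19046, limma), and 2.76% had an unadjusted p under 0.05. For the members, the unadjusted p of this difference was lowest for ISG15 at 0.154, with a helveticoside slope 0.15 higher (SE 0.0887). For IFIT1 the helveticoside slope was 0.24 higher (SE 0.228, unadjusted p = 0.333), and for IRF7 the slopes differed by -0.00 (SE 0.132). The doses of the 2 agents are in different units, so a step in one series is not matched to a step in the other.

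The rest of the pathway was described with lists of 111 other genes, of which 108 were measured. At 20 μg/mL EEDS 13 of them were over 2-fold higher and 28 over 2-fold lower, where 13.3% and 14.5% of all genes were. Among the 72 that were well above background on both arrays, 9 were higher and 20 lower, beside 15.0% and 15.9% of all genes of that kind, and the median log2 ratio was -0.29, beside 0.02. At 60 nM helveticoside 12 were over 2-fold higher and 26 over 2-fold lower, beside 10.8% and 12.8% of all genes. Among the 67 well above background on both arrays, 6 were higher and 14 lower, beside 11.0% and 13.0%, with a median of -0.23 beside 0.03. In the dose trends 9 rose and 13 fell with EEDS, where 7.27% of all genes rose and 7.86% fell. With helveticoside 8 rose and 11 fell, where 5.46% and 5.79% of all genes did, so the risers were near the share over all genes with both agents.

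Of the ligands beside IFNB1, 8 were measured and 2 (IFNE and IFNL2) were well above background on both arrays at the top doses. IFNE, an epithelial type I interferon, had log2 ratios of -1.28 at 20 μg/mL EEDS and -1.31 at 60 nM helveticoside, with adjusted p of 0.0763 and 0.0898 for its slopes. IFNL2, a type III interferon, was 2.23-fold higher at 20 μg/mL EEDS (log2 ratio 1.16) and at 0.34 at 60 nM helveticoside, and neither slope passed. IFNL1, of the same type, was the 1 ligand whose slope passed, at 0.52 per step with EEDS (adjusted p = 0.0275), although its probe failed the well-above-background call on the control and at 20 μg/mL. A trend in such dim values has no level behind it.

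IFNAR1, a chain of the type I receptor, was below its control on all 6 treated arrays, with log2 ratios of -0.54, -0.34 and -0.39 at the rising EEDS doses and -0.60, -0.48 and -0.24 at those of helveticoside. IFNAR2, its partner, was at 0.02, -0.02 and -0.57 and at 0.24, -0.06 and -0.31. None of these slopes passed. The second chains of the other receptors were higher. IFNGR2, of the interferon gamma receptor, was 2.50-fold higher at 20 μg/mL EEDS and 2.06-fold higher at 60 nM helveticoside, and rose with EEDS (adjusted p = 0.0264) but not past the limit with helveticoside (0.0608). IL10RB, which serves the type III interferon and interleukin-10 receptors, was 2.58-fold and 2.69-fold higher and rose with both agents (adjusted p = 0.0444 and 0.0404). Its partner IFNLR1 fell with EEDS (log2 ratio -1.06 at 20 μg/mL, adjusted p = 0.0493), and was at -0.52 at 60 nM helveticoside. IFNGR1 was at -0.37 and -0.45.

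Among the kinases, JAK1 was at 0.60 and 0.56 at the top doses of EEDS and helveticoside, JAK2 at -0.32 and -1.04 and TYK2 at 0.30 and 0.10. None of their slopes passed. Of the ISGF3 subunits described here, STAT2 lay below its control and IRF9 above it at both top doses, of which the STAT2 trend with EEDS passed the test. IRF2, which counters IRF1, rose with EEDS by its slope (adjusted p = 0.0422), with a bound of at least 2.54-fold at the top dose.

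Among 12 sensors and adaptors, TICAM1 and CGAS rose and MAVS fell with both agents, so 2 rose and 1 fell. Of all genes, 7.27% rose and 7.86% fell with EEDS, and 5.46% and 5.79% with helveticoside. Over 2-fold, 3 of the 12 were higher and 3 lower at 20 μg/mL EEDS, beside 13.3% and 14.5% of all genes. At 60 nM helveticoside 2 were higher and 4 lower, beside 10.8% and 12.8%. TICAM1 encodes TRIF, the adaptor of Toll-like receptor 3, and was 5.89-fold higher at 20 μg/mL EEDS and 4.01-fold higher at 60 nM helveticoside (adjusted p = 0.0132 and 0.0194 for the trends). CGAS, the sensor of DNA in the cytosol, was 2.61-fold and 2.55-fold higher (adjusted p = 0.0229 and 0.0360). MAVS, the mitochondrial adaptor of the RNA sensors, was 4.10-fold and 3.67-fold lower (adjusted p = 0.0189 and 0.0249).

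The effectors, the genes that ISGF3 and related factors switch on, lay mostly below their controls at the top doses. Beside IFIT1, IFIT2, IFIT3 and ISG15, 53 were measured. Of these, 1 was over 2-fold higher and 17 over 2-fold lower at 20 μg/mL EEDS, where 13.3% and 14.5% of all genes were. At 60 nM helveticoside the numbers were 5 and 15, beside 10.8% and 12.8% of all genes. Of the 31 well above background on both arrays with EEDS, 24 lay below the control. Their median log2 ratio was -0.61, beside 0.02 over all such genes, and 11 were over 2-fold lower and 0 over 2-fold higher, beside 15.9% and 15.0%. Of the 27 with helveticoside, 21 lay below the control. Their median was -0.40, beside 0.03, and 6 were over 2-fold lower and 0 higher, beside 13.0% and 11.0%. The lowest doses differed from each other. At 3.75 nM helveticoside 13 of 27 lay above and 13 below the control, with a median of 0.00. At 1.25 μg/mL EEDS 22 of 34 lay below it, the direction of the top dose, with a median of -0.23. The 6 carcinoma markers of A549 cells had medians of -0.98 at 20 μg/mL EEDS and -0.98 at 60 nM helveticoside, with all 6 below their controls, and their part in the effectors' values was not tested.

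In the trends of the effectors 1 rose and 8 fell with EEDS, beside 7.27% and 7.86% of all genes. Those that fell included ADAR, MX1, OAS3, OASL, PARP9, TRIM14 and UBE2L6, and the one that rose was GBP3, an interferon-induced GTPase. With helveticoside 6 fell (among them DDX60, EIF2AK2, HERC6, TRIM14 and UBE2L6) and 3 rose (BST2, CXCL10 and GBP3), beside 5.79% and 5.46%. TRIM14, which supports signalling at MAVS, was 4.07-fold lower at 20 μg/mL EEDS and 4.08-fold lower at 60 nM helveticoside (adjusted p = 0.0178 and 0.0202). UBE2L6, the enzyme that conjugates ISG15, was at -1.17 and -1.01 on the log2 scale (adjusted p = 0.0288 and 0.0417). OAS3 was 3.25-fold lower with EEDS (adjusted p = 0.0305) and 2.10-fold lower with helveticoside (0.0650). GBP3 was at least 4.45-fold higher with EEDS and at least 1.44-fold higher with helveticoside, since its probe was dim on both controls. CXCL10 and BST2 failed the well-above-background call on the control and the top-dose array of the helveticoside series, so their slopes have no measured level behind them. MX1, OASL, DDX60 and HERC6 had been well above background on the control of the series in which they fell and were not at its top dose. ZC3HAV1 (-1.86 and -1.23 at the top doses) and SP110 (-1.38 and -1.38) had slopes that did not pass.

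Of the 6 feedback inhibitors, SOCS3, which blocks JAK kinases, was 10.1-fold higher at 20 μg/mL EEDS and 7.85-fold higher at 60 nM helveticoside and rose with both (adjusted p = 0.0189 and 0.0290). PTPN6, a phosphatase that acts on the same signalling, was 4.45-fold and 3.18-fold lower and fell with both (adjusted p = 0.0264 and 0.0443). USP18, which removes ISG15 from proteins and blocks IFNAR2, was at -2.17 and -1.96 on the log2 scale, with adjusted p of 0.0705 and 0.103.

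The antigen presentation genes, many of which respond to interferon gamma, were divided. TAP1, a subunit of the peptide transporter, was 2.85-fold higher at 20 μg/mL EEDS and 3.43-fold higher at 60 nM helveticoside and rose with both (adjusted p = 0.0345 and 0.0284). PSMB8, an immunoproteasome subunit, was 2.62-fold and 2.18-fold lower and fell with both (adjusted p = 0.0199 and 0.0318). Of the 13 such genes well above background on both arrays, 9 lay above their control at the top dose of either agent. Their median log2 ratio was 0.33 at 20 μg/mL EEDS and 0.38 at 60 nM helveticoside, beside 0.02 and 0.03 over all such genes. Over 2-fold, 1 was higher and 3 lower with EEDS, beside 15.0% and 15.9%. With helveticoside 1 was higher and 2 lower, beside 11.0% and 13.0%. In the trends of all 14, 1 rose and 2 fell with EEDS, beside 7.27% and 7.86% of all genes. With helveticoside 1 rose and 3 fell, beside 5.46% and 5.79%.

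**Figure D4:**
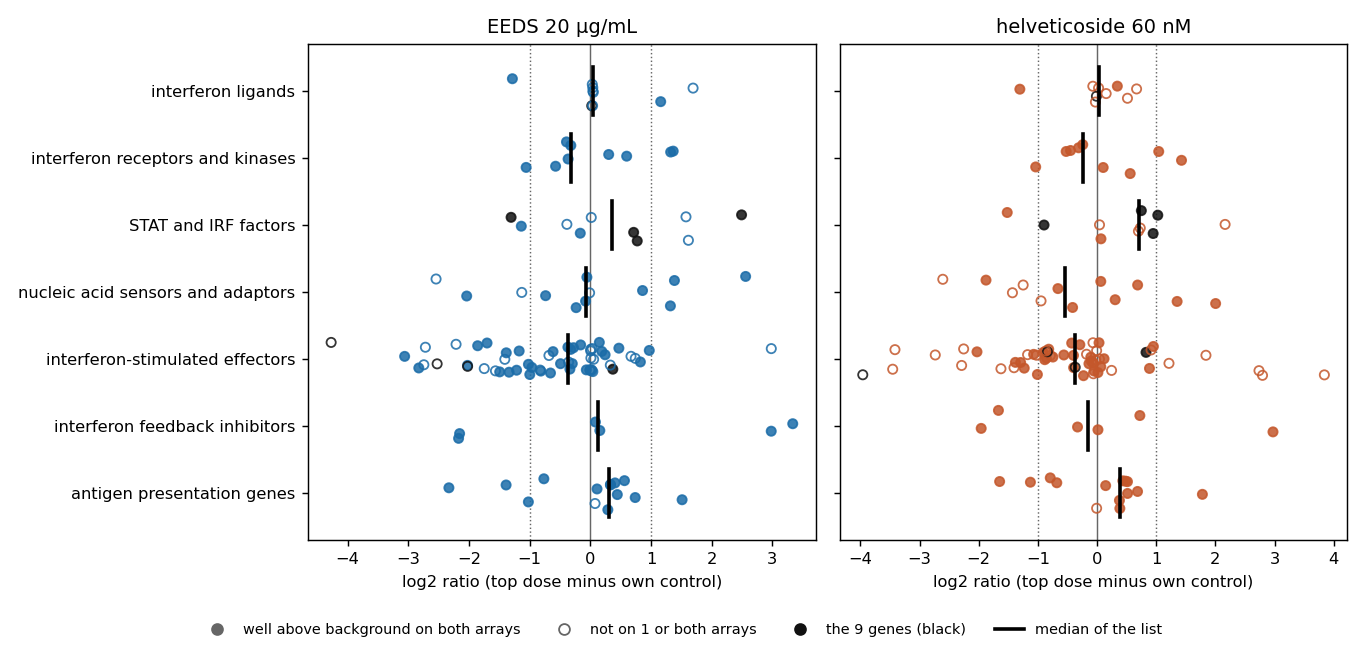
Log2 ratio of the top dose to its own vehicle control for every measured gene of 7 interferon pathway lists, with EEDS at 20 μg/mL on the left and helveticoside at 60 nM on the right. Each point is 1 gene on 1 pair of arrays, black points are the 9 genes, open points were not well above background on 1 or both arrays, bars are list medians over all measured genes including the 9, and vertical scatter only separates points. The effectors lie mostly left of 0, and SOCS3 at 3.34 and 2.97 is the furthest right of the feedback inhibitors.

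The ISRE core was found in the promoters of 3 of the 7 members with an entry in the promoter table (IFIT1, IFIT3 and ISG15) and of 46 of 88 other pathway genes. A gene was counted when any of its promoters held the core, so the 3.57% given above, a share of promoters, is in another unit. Genes with a promoter entry and the well-above-background call on both arrays, the members left out, were split by the motif. At 20 μg/mL EEDS 13.1% of 396 genes with it and 15.8% of 9994 without it were over 2-fold lower, and 15.7% and 15.2% were over 2-fold higher. At 60 nM helveticoside 10.8% of 360 and 13.0% of 9256 were lower, and 12.8% and 11.0% were higher. These shares are descriptions of single pairs of arrays.

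The genes whose 6 log2 ratios lay closest to the members' were sought among 11493 genes well above background on all arrays, by Euclidean distance over the 6 treated arrays. Closest to the median profile of IFIT1, IFIT2, IFIT3 and ISG15 were GOLGA2P5 (distance 0.672), ZNF573 (0.894) and GPR135 (0.914). That profile is uncertain, since its -2.27 at 20 μg/mL EEDS rests on IFIT2 and IFIT3 signals as read, whose bounds are -1.48 and -0.67, and IFIT3 was dim on every helveticoside array. The order of these genes is therefore not settled. Among the 3 closest to IRF1 were RLF (0.748) and HIVEP2 (0.972). RLF was at 2.73 at 20 μg/mL EEDS and 0.71 at 60 nM helveticoside, where IRF1 was at 2.49 and 0.95.

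The identity and quality of the arrays bear on these values. All 6 epithelial markers and all 6 carcinoma markers of A549 cells were well above background on all 8 arrays. In the dose trends 4 of the 6 epithelial markers fell with EEDS and 3 with helveticoside, and their median log2 ratio was -0.68 at 20 μg/mL EEDS and -0.65 at 60 nM helveticoside. The carcinoma markers were all below their controls at the middle and top doses, with medians of -0.64 and -0.98 for EEDS and -0.54 and -0.98 for helveticoside, and 0 of their 6 trends passed with either agent by limma, although 4 with EEDS and 6 with helveticoside had an unadjusted p under 0.05. At the top doses 2 of them with EEDS and 3 with helveticoside were over 2-fold lower. Of 6 leukocyte markers, 3 (PTPRC, CD79A and CD14) were well above background on all arrays and 2 (CD3E and CLEC4C) on none. The 3 had a median of -1.17 at 20 μg/mL EEDS and -0.71 at 60 nM helveticoside, with 2 of them below the control at each. The log2 of the summed leukocyte signal ran from 11.7 to 12.9 over the EEDS arrays and from 12.4 to 13.4 over those of helveticoside. Of 6 fibroblast and endothelial markers, 2 (COL1A1 and CDH5) were well above background on all arrays and 4 on none, and their summed signal ran from 8.66 to 9.54 and from 8.59 to 9.32. The part of these markers in the members' values was not tested. The share of spots well above background was 65.3% to 66.9% on the EEDS arrays and 56.9% to 61.6% on the helveticoside arrays, and no spot was saturated. The arrays were normalized to a common distribution, so these signals are relative and carry no cell number. In such bulk RNA, a smaller share of cells expressing a gene and less of its RNA per cell cannot be told apart.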

How the data were processed

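Gene expression was measured on 8 one-colour arrays. For every spot the authors deposited an intensity (median signal, local background and a background-subtracted processed signal) with calls of outlier and well-above-background spots, and for the series a table of intensity values quantile-normalized within each series. Control and outlier spots were dropped. Processed signals were averaged per probe, quantile-normalized over the 8 arrays and log2-transformed. Of 34127 probes, 24812 matched 19056 RefSeq genes by accession. A gene with several probes was read from its brightest. A gene entered a series' comparisons when its median signal reached 1.4 times the background on at least 1 of its arrays. Trends used limma 3.58.1 in R 4.3.3 (with statmod 1.5.0), with an intercept and slope per series, trend and robust options on and a threshold of 0.05. Other values used Python 3.11.15, numpy 2.4.6 and pandas 2.3.3. Tested on simulated data for the EEDS trend (19056 genes, 200 changed), limma called 93, of which 91 were changed and 0 had the wrong sign. It found 64% of slopes of 1 and 27% of slopes of 0.5. Promoters came from RefSeq's GRCh38.p14 table.

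The members and the gene lists were chosen with earlier results of these data known. Named pathway genes are those over 2-fold in the same direction at both top doses and well above background there (at most 4 for each list and direction), the receptor chains and kinases. Those named for a passed trend, and IRF2, IFNL1 and IFNL2, were added after their values were seen. Probes for IFI27, IFNA1 and IRF5 were not matched. The values of some list genes are not reported here.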

Additional observations from a re-analysis of the deposited data

How the results depend on the processing

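Limits come from the arrays, 1 a dose, and from dim probes. No paired analysis was possible because each group has 1 array. Of 483 log2 ratios of the 9 genes under other settings, 442 moved by less than 1 SD between the controls. Many of these could not move. Without a filter on dim probes, 54 of 54 were the same. With the mean over all probes 53 of 54 were, since IFIT2 alone had a second probe. In 31 of the 483 the sign was opposite to the reported one, 11 of them against the other series' control. There IFIT3 went from -0.17 to 0.65 at 5 μg/mL EEDS and from 0.14 to -0.68 at 15 nM helveticoside. In 2 of the 31 the reported ratio had been over 2-fold. There IFIT3 at 3.75 nM, not well above background on either array, was at 0.0299 with normexp correction and at 0.0270 in the authors' table. With scaling to the 75th percentile, the all-gene median log2 ratios were -0.20, -0.21 and -0.36 as the EEDS dose went up, and 0.14, -0.12 and -0.18 with helveticoside.

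Members over 2-fold higher at 20 μg/mL EEDS numbered 2 against the other series' control and 3 at 1.5-fold, and those lower 2 with the signal as scanned, 2 with normexp and 1 where both arrays were well above background, a restriction chosen after seeing the data. At 60 nM helveticoside those higher numbered 0 as scanned, with normexp, 75th percentile scaling, quantile normalization within each series, the authors' table and the other control, and 4 at 1.5-fold. Those lower numbered 2 with 75th percentile scaling, 4 with the other control, 3 at 1.5-fold and 0 where both arrays were well above background. Against the other control, each member's difference carries the gap between the 2 controls, which ran from -0.82 for IFIT3 to 0.13 for IFNB1.

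Pathway genes higher with EEDS numbered 8 with normexp and 20 at 1.5-fold, and lower 15 as scanned and 16 with normexp. With helveticoside those higher numbered 7 as scanned, 7 with normexp, 6 in the authors' table, 21 at 1.5-fold and 6 where both arrays were well above background. Those lower numbered 11, 11, 9 and 14 under the same settings other than 1.5-fold, and 17 where 1 array of the series had to be well above background.

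Members with a passed trend numbered 0, in either direction and for either agent, when the lowest, the middle or the top dose was left out or when a series was fitted alone. In those fits 0 of all genes passed by limma, with 3258 to 5399 at an unadjusted p under 0.05. For IFIT1 the adjusted p over the 13 settings ran from 0.00221 to 0.190 with EEDS (slopes from -1.80 to -0.51) and from 0.0101 to 0.278 with helveticoside, and for STAT2 with EEDS from 0.00622 to 0.205. With helveticoside IFIT1 missed the limit (adjusted p = 0.0572) and STAT2 passed it (0.0404) where 1 array of the series had to be well above background. As scanned and with normexp, 2 members (IFIT1 and STAT2) fell with helveticoside, and 0 did in the authors' table. The rise of ISG15 was also lost, leaving 0, as scanned, with normexp, with 75th percentile scaling and in the authors' table. The slopes of IFIT1, STAT2 and ISG15 kept their sign under all 13 settings. Some of these could not change the slope of these genes. They are eBayes with neither option, the mean over all probes, no filter on dim probes and a series fitted alone. The cause of the other moves was not tested.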
